A study of Mus musculus with 27 samples.

Results

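Pleiotrophin (Ptn) and midkine (Mdk) and the cell-surface molecules reported to bind them were followed in differentiating mouse calvarial osteoblast cultures. The set held 10 named genes of the 37991 genes in the tables: the ligands Ptn and Mdk, the receptor tyrosine phosphatases Ptprz1 and Ptprs, the receptor kinase Alk, the syndecans Sdc1, Sdc2, Sdc3 and Sdc4, and nucleolin (Ncl). All 10 were found by matching Ensembl gene identifiers to symbols. The set was chosen by name and by the measured level of Ptn, known to be among the most abundant transcripts of the series, so the values of Ptn are given as a description and Ptn is left out of the counts of genes that passed a test.

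The cells came from the calvaria of C57BL/6J-Col3.6 CFP mice aged 5 to 9 days, which carry cyan fluorescent protein (CFP) under a 3.6 kb type I collagen promoter fragment. Cells positive for CFP were sorted and then kept in medium with ascorbic acid, beta-glycerol phosphate and fetal bovine serum, the same at every time point. RNA was profiled at 9 time points, every other day from day 2 to day 18. Each time point has 3 profiles with a shared barcode, read in separate lanes. The labels number them as replicates without saying whether they came from separate cultures, and the study's methods speak of triplicate samples. Over the lanes the counts of the 10 genes had a chi-square per degree of freedom of 0.806 to 1.69. The profiles were therefore summed and counted as 1 library per time point, and on that reading there is no replicate between cultures. How many animals were pooled is not given in the sources used here. There was no undifferentiated or untreated culture for comparison.

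Ptn and Mdk are small secreted heparin-binding growth factors that sit in the matrix and are known for roles in neurite outgrowth, growth and bone formation. Both bind the sulfated sugar chains of cell-surface proteoglycans. Ptprz1 and Ptprs are receptor phosphatases that carry or bind such chains, Alk is a tyrosine kinase whose link to these ligands is debated, syndecans are transmembrane proteoglycans, and Ncl is a nucleolar protein that can also reach the cell surface.

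The summed libraries held between 22470200 and 62009200 counts. Levels are given as scaled TPM, that is TPM (RSEM's length-corrected share of transcripts) brought to a common upper quartile over profiles, and the SD over the 3 profiles reflects lanes only. Among the markers used to check the labelled cell type, 6 of 8 osteoblast genes rose. The summed level of all 8 was 1616 to 2418 scaled TPM on days 2 to 6 and 3647 to 4683 on days 14 to 18. Most of it was Col1a1, at 1526 on day 2 and 4263 on day 18. Sp7, at 32.3 and 10.6 on those days, and Alpl, at 9.13 and 17.6, did not pass the test. Over all genes tested 28.3% rose and 26.1% fell. Other cell types' markers moved too. The sum of 7 monocyte and macrophage genes was 24.1 to 61.7 scaled TPM on days 2 to 6. On days 14 to 18 it was 522 to 2014, mostly Lyz2, which was at 1855 on day 18. Of the 7 genes 6 rose and none was at 0. The sum of 5 adipocyte genes was 3.21 to 7.44 early and 188 to 407 late, with 5 of 5 rising. The sum of 6 genes of dividing cells was 278 to 332 early and 74.7 to 94.1 late, with 6 of 6 falling. The part of these changes in the results on the ligands, receptors and syndecans was not tested. In such bulk RNA, fewer cells of a type and less RNA per cell cannot be told apart.

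Promoter windows of 250 bases before the RefSeq start were taken from assembly GRCm38.p6, and 8 of the 10 genes had an entry. Mdk and Sdc2 had none. The windows were searched on both strands for the RUNX core TGTGGT, the E-box CACGTG, the GC box GGGCGG, the AP-1 motif TGACTCA and the TATA box TATAAA. Capitals mark the motifs found. Ptn (chr6:36810180-36810429, minus strand) is shown as the gene with the largest rise, Ptprs (chr17:56476481-56476730, minus strand) as the window with E-boxes, and Sdc4 (chr2:164443189-164443438, minus strand) and Ncl (chr1:86359456-86359705, minus strand) as the genes that fell.
Ptn: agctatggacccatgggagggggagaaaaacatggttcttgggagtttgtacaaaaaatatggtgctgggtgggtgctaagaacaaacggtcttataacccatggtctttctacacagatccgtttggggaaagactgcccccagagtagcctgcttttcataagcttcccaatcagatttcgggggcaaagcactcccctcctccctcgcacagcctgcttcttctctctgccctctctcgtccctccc
Ptprs: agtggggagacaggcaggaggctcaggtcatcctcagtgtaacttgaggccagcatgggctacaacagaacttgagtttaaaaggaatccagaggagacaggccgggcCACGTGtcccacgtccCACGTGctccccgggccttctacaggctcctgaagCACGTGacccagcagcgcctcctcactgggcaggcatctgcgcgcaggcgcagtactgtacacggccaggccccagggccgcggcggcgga
Sdc4: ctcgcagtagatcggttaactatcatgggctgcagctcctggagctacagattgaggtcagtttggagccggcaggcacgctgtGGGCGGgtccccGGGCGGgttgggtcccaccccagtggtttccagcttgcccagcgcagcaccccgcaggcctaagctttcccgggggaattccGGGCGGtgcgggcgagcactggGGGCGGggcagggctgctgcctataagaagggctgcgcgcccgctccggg
Ncl: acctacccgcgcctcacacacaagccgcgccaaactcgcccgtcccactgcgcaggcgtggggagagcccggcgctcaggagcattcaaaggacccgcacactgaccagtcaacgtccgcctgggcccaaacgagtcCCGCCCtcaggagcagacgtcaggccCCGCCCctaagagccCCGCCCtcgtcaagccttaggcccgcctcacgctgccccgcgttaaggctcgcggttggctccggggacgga

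The Ptn window held none of the 5 motifs and had a GC content of 52.0%, against a median of 52.4% over 32851 promoter windows. The windows of the other genes had a GC content of 64.0% to 76.4%. The Ptprs window held 3 E-boxes, a motif present in 6.02% of all windows. The Sdc4 window held 4 GC boxes and the Ncl window 3, and 7 of the 9 windows of the set (Ptprs has a second start) held at least 1, against 32.7% of all windows. The RUNX core, the AP-1 motif and the TATA box, present in 14.0%, 4.46% and 12.4% of all windows, were in none of the 9. A match or its absence in these windows is a description of the letters only.

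Both ligands were higher late in the course than early. Ptn (ENSMUSG00000029838, NCBIM37 chr6:36665663-36761361, minus strand) stood at 85.3, 136 and 432 scaled TPM at the first 3 time points (days 2 to 6), at 1725, 5649 and 6933 at the next 3 (days 8 to 12) and at 7312, 6383 and 5393 at the last 3 (days 14 to 18). Days 2 to 6 lay below every later day, and the level fell between day 14 and day 18. Each of the steps from day 4 to day 6, from day 6 to day 8 and from day 8 to day 10 was over 3-fold, at 3.17, 3.99 and 3.27, and the next step, to day 12, was 1.23-fold. By level Ptn ranked 1280 among all genes on day 2, 41 on day 8 and 5 on days 10, 12 and 14. The level on day 18 was 63.2 times that on day 2. A straight line in day, fitted to the 9 libraries, gave a log2 change of 6.96 (SE 1.59) from day 2 to day 18, above the 5.98 between the end points, as the levels did not lie on a line.

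The level of Ptn per length depends on which transcript the reads were assigned to. The effective length of Ptn was 615 to 641 bases over the 9 days, near that of the shortest of its 4 annotated transcripts (803 bases, against 2529 for the longest). In 3868 long genes with 1 transcript the effective length was 279 bases below the annotated length in all 27 profiles. With that offset, between 88.9% and 94.7% of Ptn transcripts were assigned to the shortest form, the range covering the days and the choice of the other form. On the length of the longest transcript the mean level of Ptn over the days would be 1043 rather than 3783 scaled TPM, 3.63-fold lower. Its rank, with all other genes left at their scaled TPM, would be 76 rather than 11. As a share of all counts, which uses no length, Ptn held 0.00364% on day 2 and 0.279% on day 14.

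Mdk (ENSMUSG00000027239, chr2:91769962-91772454, minus strand) stood at 32.6, 45.4 and 84.8 scaled TPM over days 2 to 6, at 151, 322 and 431 over days 8 to 12 and at 548, 568 and 484 over days 14 to 18. The level rose at every step up to day 16, and days 14 to 18 all lay above days 2 to 6. The fitted log2 change was 4.46 (SE 0.58), with an adjusted p of 0.000167 (edgeR's quasi-likelihood fit, Benjamini-Hochberg over all 15659 genes tested). The 3' end of Mdk overlaps Chrm4 on the other strand by 25 bases, and Chrm4 had 31 counts in all libraries together.

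Ptn was above Mdk on 9 of 9 days. The ratio of Ptn to Mdk was 2.62 on day 2, 17.5 on day 10, where it was highest, and 11.1 on day 18. Over the 9 days the log ratio went with day with a Pearson r of 0.767 and a Spearman rho of 0.517, given as a description since Ptn was chosen for its level. Without days 2 and 18 the r was 0.739 over 7 days. By TPM, Ptn made up 72.4% of the TPM of both ligands on day 2, 94.6% on day 10 and 91.8% on day 18. With each gene's longest transcript as its length, the ratio was 1.13, 7.57 and 4.81 on those days, and the share of Ptn was 53.0%, 88.3% and 82.8%.

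**Figure D1:**
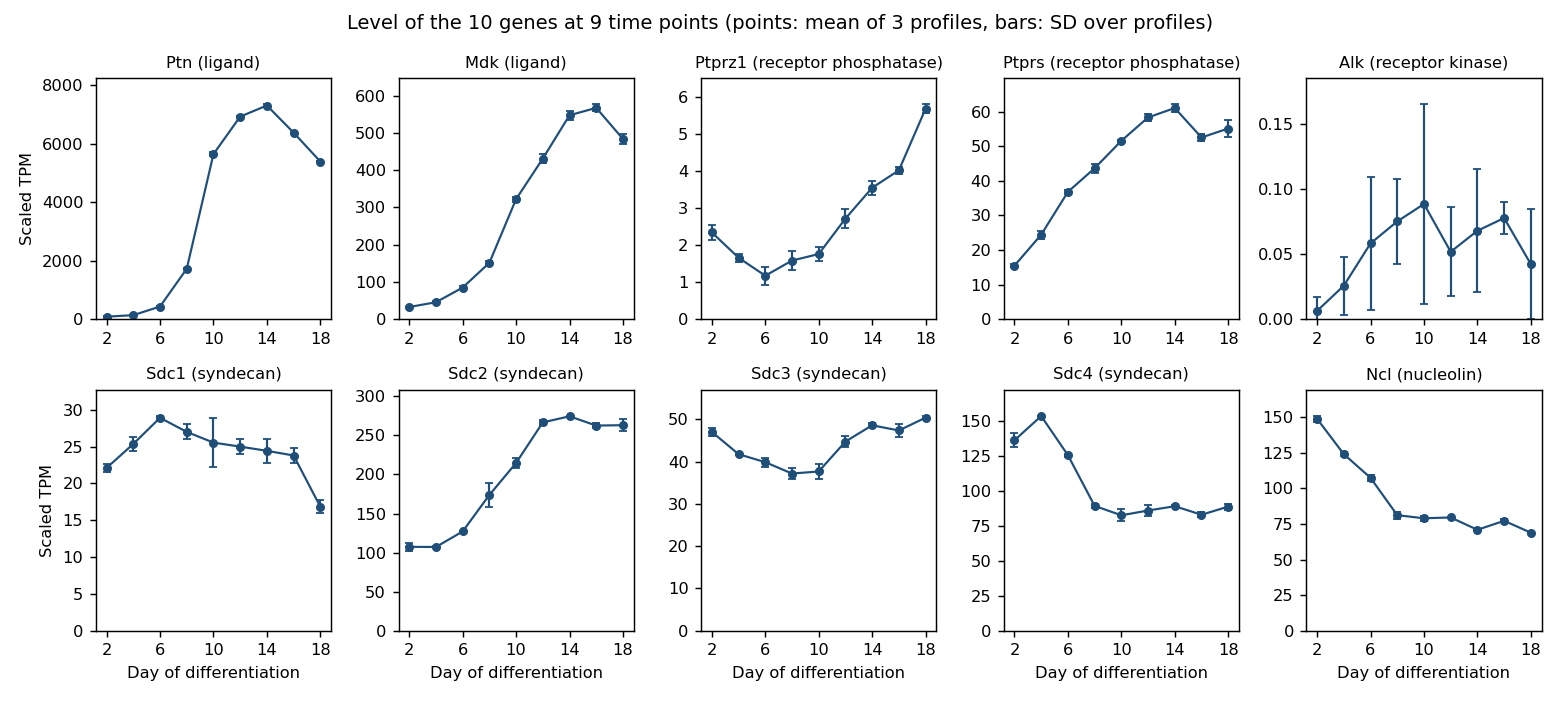
Level of each of the 10 genes in scaled TPM (y axis, linear, from 0, its own range per gene) against day of differentiation (x axis). Points are the mean of the 3 lane profiles of a time point and bars their SD. Ptn and Mdk climb to day 14 and day 16, Ncl and Sdc4 fall mainly before day 10, and Alk stays at or below 0.0886.

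The receptor phosphatases rose along different courses, and Alk was close to undetected. Ptprs (ENSMUSG00000013236, chr17:56551851-56615906, minus strand), a receptor for sulfated proteoglycan chains, stood at 15.5, 24.4, 36.8, 43.7, 51.6, 58.4, 61.1, 52.6 and 55.2 scaled TPM from day 2 to day 18 in order. It rose at each step up to day 14, and days 14 to 18 did not overlap with days 2 to 6. The fitted log2 change was 1.43 (SE 0.33, edgeR with Benjamini-Hochberg adjustment, adjusted p = 0.00424). The effective length of Ptprs was 5533 and 5565 bases on days 2 and 4 and 5088 to 5206 bases on days 10 to 18. Ptprs has 8 annotated transcripts, so the gene tables do not say which of them differed.

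Ptprz1 (ENSMUSG00000068748, chr6:22825502-23002916, plus strand), best known from glia and their precursors, was between 6.60-fold (day 2) and 31.3-fold (day 6) below Ptprs. Its level was 2.35, 1.66 and 1.17 scaled TPM over days 2 to 6, then 1.58, 1.76 and 2.72 up to day 12, then 3.55, 4.02 and 5.69 up to day 18. It was lowest on day 6 and highest on day 18, from 261 and 1192 counts. The fitted log2 change was 1.50 (SE 0.39, edgeR with Benjamini-Hochberg adjustment, adjusted p = 0.00825), and without day 18 it was 1.15 with an adjusted p of 0.0550, above the threshold of 0.05. Of 7 neural and glial markers 2 rose and 2 fell, and their sum was 23.1 to 29.2 scaled TPM on days 2 to 6 and 43.7 to 52.4 on days 14 to 18. The late sum was mostly S100b, which went from 2.56 on day 2 to 47.8 on day 18, while the other 6 markers together went from 21.2 to 4.61. Mbp went from 10.1 to 1.80 and Tubb3 from 10.7 to 1.19, and Sox10 was at 0 on day 2 and at 0.0634 on day 18. Their part in the course of Ptprz1 was not tested.

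The ratio of Ptprs to Ptprz1 was 6.60 on day 2, 31.3 on day 6 and 9.69 on day 18. It showed no trend past the threshold (Pearson r = -0.023, exact permutation p = 0.952, adjusted 0.952 over 4 ratios, two-sided, n = 9 days, and Spearman rho = -0.133, exact p = 0.744). Without days 2 and 18 the r was -0.398 (exact permutation p = 0.356).

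Alk (ENSMUSG00000055471, chr17:72218782-72953049, minus strand) had 1, 4 and 8 counts over days 2 to 6, then 7, 6 and 9 up to day 12 and 9, 11 and 5 up to day 18, which made 60 in all. It did not pass the filter on low counts. On day 2 the single count was 0.0237 CPM, with an exact 95% Poisson interval of 0.000599 to 0.132. On day 16 the level was 0.218 CPM (0.109 to 0.389). These intervals cover counting error only. In a fit that left out only genes without counts, the log2 change was 1.15 with an edgeR Benjamini-Hochberg adjusted p of 0.455, so a difference was not detectable at this depth.

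The syndecans moved in different directions. Sdc2 (ENSMUSG00000022261, chr15:32850478-32964485, plus strand), the syndecan of mesenchymal cells, stood at 107, 107 and 127 scaled TPM over days 2 to 6, then 174, 215 and 267 up to day 12, then 274, 263 and 263 up to day 18. The higher levels began after day 6, and the last 4 time points lay between 263 and 274. The fitted log2 change was 1.51 (SE 0.22, edgeR with Benjamini-Hochberg adjustment, adjusted p = 0.000283).

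Sdc4 (ENSMUSG00000017009, chr2:164249747-164269387, minus strand), a syndecan of focal adhesions, stood at 137, 154 and 126 scaled TPM on days 2, 4 and 6, at 89.5 on day 8 and between 82.8 and 89.3 from day 10 on. Every day from day 8 on lay below the 3 early days. The fitted log2 change was -0.92 (SE 0.19, edgeR with Benjamini-Hochberg adjustment, adjusted p = 0.00189).

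Sdc1 (ENSMUSG00000020592, chr12:8778129-8800521, plus strand), known mainly from epithelia and plasma cells, was 22.1 scaled TPM on day 2, 28.9 on day 6, where it was highest, 25.0 on day 12, and 16.8 on day 18, where it was lowest. The line did not pass the threshold, at a log2 change of -0.41 (SE 0.19, edgeR with Benjamini-Hochberg adjustment, adjusted p = 0.0882), while with TMM factors it did, at -0.46 (adjusted p = 0.0493). Without day 2 it was -0.63 (adjusted p = 0.0239), and without day 18, the lowest day, -0.15 (edgeR, adjusted p = 0.460). The summed level of 4 epithelial markers stayed at or below 0.839 scaled TPM and that of 4 B and plasma cell markers at or below 0.638.

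Sdc3 (ENSMUSG00000025743, chr4:130348452-130382234, plus strand), a syndecan of neural and musculoskeletal tissue, stood at 47.0 scaled TPM on day 2, 37.2 on day 8 (its lowest) and 50.4 on day 18. The line did not pass the threshold, at a log2 change of 0.15 (SE 0.14, edgeR with Benjamini-Hochberg adjustment, adjusted p = 0.416), and without day 2 it was 0.37 (adjusted p = 0.0441). A curve in day, a natural spline with 3 degrees of freedom, passed for both, with adjusted p of 0.00703 for Sdc1 and 0.00758 for Sdc3.

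In sum the syndecans held 313 scaled TPM on day 2 and 437 on day 14, the lowest and highest days, while their make-up turned over. By TPM, Sdc4 was the largest on days 2 and 4, with 43.6% and 46.9% of the sum. On coding length Sdc2 was above Sdc4 on day 2, at 42.1% against 39.8%, and below it on day 4, at 40.6% against 42.6%. On day 6 Sdc2 and Sdc4 were near equal, at 39.5% and 39.1%, and on day 18 Sdc2 held 62.7% and Sdc4 21.2%. The ratio of Sdc4 to Sdc2 was 1.27 and 1.44 at the first time points and 0.317 and 0.338 at the last ones, days 16 and 18. It fell with day (Pearson r = -0.904, exact permutation p = 0.000336, adjusted 0.00134 over 4 ratios, two-sided, n = 9 days, and Spearman rho = -0.867, exact p = 0.00451, adjusted 0.0180). Without days 2 and 18 the r was -0.915 (exact permutation p = 0.000794). The ratio of Sdc1 to Sdc3, 0.470 on day 2, 0.726 on day 8 and 0.334 on day 18, did not pass (Pearson r = -0.537, exact permutation p = 0.135, adjusted 0.180, and Spearman rho = -0.417, exact p = 0.270, n = 9 days, and r = -0.753 without days 2 and 18, exact permutation p = 0.0619).

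Set against the syndecans, the ligand transcripts went from 0.377 per syndecan transcript on day 2 to 1.61 on day 6, 18.0 on day 14 and 14.0 on day 18, by TPM. The size depends on the length used: with the longest transcripts it was 0.143 at the start and 4.30 at the end, and on coding lengths 0.114 and 3.85. These are transcript levels, and no protein was measured.

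**Figure D2:**
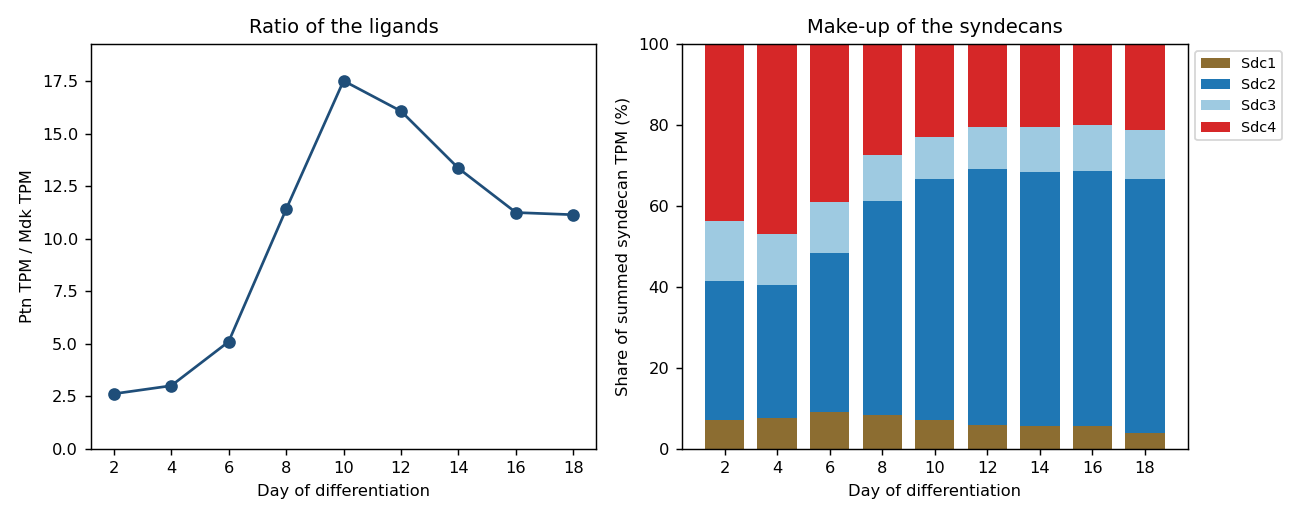
Left, ratio of Ptn TPM to Mdk TPM (y axis, linear, from 0) by day of differentiation. Right, share of each syndecan in the summed syndecan TPM (y axis, percent, stacked bars) by day. The ratio is highest on day 10 at 17.5, and Sdc2 takes a larger share than Sdc4 from day 6 on.

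Ncl (ENSMUSG00000026234, chr1:88241294-88256030, minus strand), which acts in ribosome production, fell. It stood at 149, 124 and 107 scaled TPM over days 2 to 6, at 81.2, 79.1 and 79.6 over days 8 to 12 and at 71.0, 77.3 and 68.9 over days 14 to 18. The 3 early days lay above all later ones. The fitted log2 change was -1.13 (SE 0.16, edgeR with Benjamini-Hochberg adjustment, adjusted p = 0.000313). Its annotated transcript is 8257 bases long with 2121 coding bases, and on the coding length its mean level would be 351 rather than 93.1 scaled TPM.

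Of 16 other genes listed as nucleolar factors, with the transcription factor Myc among them, 16 fell and none rose. Their median log2 change was -1.48, where 26.1% of all genes tested fell and the median over all was 0.05. Npm1, a nucleolar chaperone, was the most abundant, at 3075 scaled TPM on day 2 and 1290 on day 18 (log2 change -1.39, SE 0.15). Nop56, a snoRNP core protein, went from 248 to 88.1 (-1.79, SE 0.20), and Nhp2, also of snoRNPs, had the largest fall, from 34.5 to 7.92 (-1.93, SE 0.30). Against day 2 the log2 level on day 8 was -0.87 for Ncl and -0.75 for the median of the nucleolar factors, while the median of the 6 genes of dividing cells was -0.09. On day 10 the values were -0.91, -1.13 and -0.90, and on day 18 they were -1.11, -1.32 and -1.92.

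**Figure D3:**
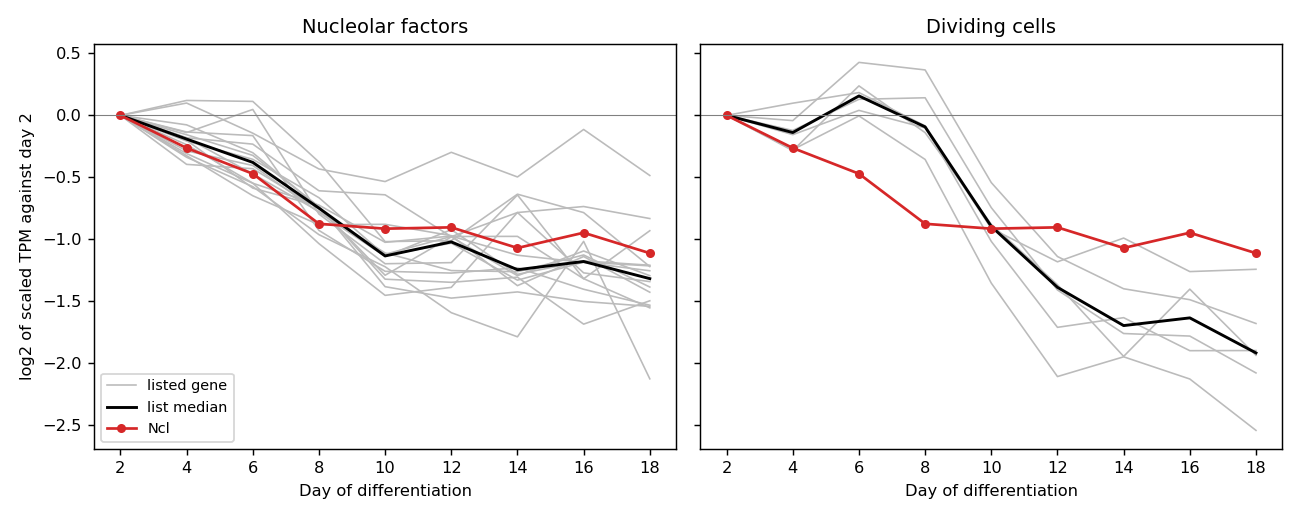
Log2 of scaled TPM against day 2 (y axis) by day of differentiation (x axis). Ncl is shown as red points, each listed gene in grey and the list median in black. The list of nucleolar factors, with Myc, is on the left and genes of dividing cells are on the right. On day 8 Ncl is at -0.87 and the dividing-cell median at -0.09, and on day 10 they are at -0.91 and -0.90.

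Apart from Ptn and the untested Alk, 8 genes were tested and 6 passed the threshold, 4 rising (Mdk, Ptprz1, Ptprs and Sdc2) and 2 falling (Sdc4 and Ncl). Over all 15659 genes 54.3% passed, 28.3% rising and 26.1% falling, so passing was common. The median log2 change was 0.79 over the 8 genes and 0.05 over all genes tested. Days 14 to 18 did not overlap with days 2 to 6 for 7 of the 8 genes, against 58.0% of all genes. Of these 7, 5 lay above (32.4% of all genes) and 2 below (25.6%). Among the 5 was Sdc3, by less than its lane SD. It stood at 47.3 (SD 1.53) on day 16 and at 47.0 (SD 1.04) on day 2. Along the curve, where Alk could be tested, 8 of 9 genes passed, against 57.5% of 16256 genes. Among 7619 genes with a mean of at least 10 TPM, the rise of Mdk ranked 136 and that of Sdc2 650, and the falls of Ncl and Sdc4 ranked 884 and 1260.

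**Figure D4:**
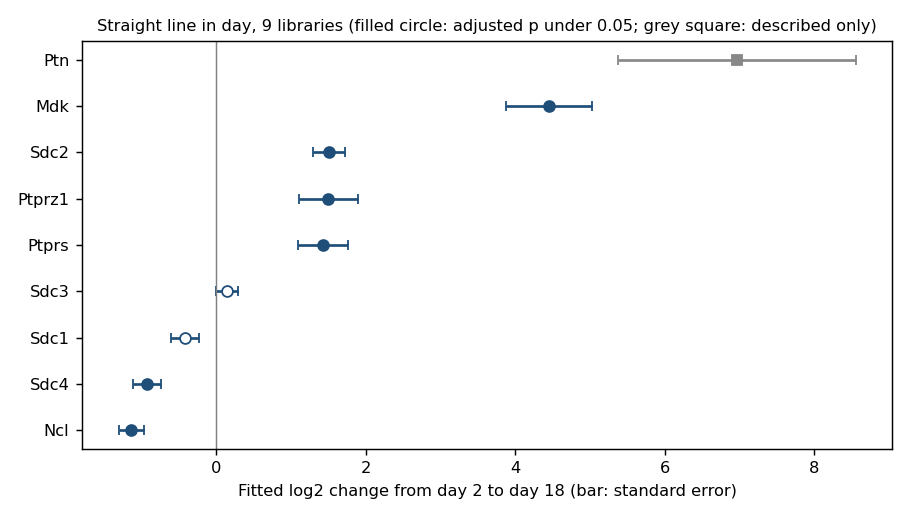
Fitted log2 change from day 2 to day 18 (x axis) for 9 genes (y axis), from a straight line in day over 9 libraries. Bars are standard errors, filled circles have an adjusted p under 0.05, and the grey square is Ptn, described only. Ptn lies at 6.96 and Mdk at 4.46, and Sdc1 and Sdc3 are open.

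By mean scaled TPM over the days the order was Ptn, Mdk, Sdc2, Sdc4, Ncl, Ptprs, Sdc3, Sdc1, Ptprz1 and Alk. The ranges over days were apart between Ncl and Ptprs, Sdc3 and Sdc1, Sdc1 and Ptprz1, and Ptprz1 and Alk. They overlapped for the other neighbours. Mdk was above Sdc2 on 5 of 9 days and Ptprs above Sdc3 on 6 of 9. The order turns with the length used: on the longest transcripts Sdc2 (198) came before Mdk (189) and Sdc3 before Ptprs, and on coding lengths Mdk (348) came after Sdc2 (996), Sdc4 (382) and Ncl (351), and Ptprs (40.5) after Sdc1 (75.1).

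The genes most alike in course, by Pearson r of log2(scaled TPM + 1) over the 9 libraries among 7655 genes with a mean of at least 10 TPM, were Egfr (r = 0.998), Meis1 (0.997) and Clec11a (0.997) for Ptn. As many as 526 genes had an r over 0.95 with Ptn. For Mdk, Gstt1 (0.998) and Rnf144a (0.998) were among them, and for Ptprs they were Asah2 (0.996), Arsb and Nrbp2. For Sdc2 they were Angptl1 (0.998), Ubtd2 and Cfb, and for Ncl Eif2s3x (0.993), Metap2 and 1810029B16Rik. For Sdc4 they were Gm16854 (0.987), Tnfrsf23 and Steap2, for Ptprz1 Glul (0.981), Osbpl8 and Plod2, for Sdc3 Copg2 (0.961), Tnks1bp1 and BC056474, and for Sdc1 Phf10 (0.918), Gins4 and 1700025G04Rik. These r describe 9 libraries that share a time order.

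The genes around the ligands and proteoglycans moved in both directions, and over all genes tested 28.3% rose and 26.1% fell. Of 16 other ligands, receptors and binding partners tested 3 rose and 8 fell. Itgb1, an integrin subunit, went from 805 scaled TPM on day 2 to 278 on day 18 (log2 change -1.57, SE 0.20), and Vcan, a chondroitin sulfate proteoglycan of the matrix, from 132 to 62.8 (-1.27, SE 0.30). Lrp6, a Wnt coreceptor, stood at 27.2 scaled TPM on day 2 and rose (log2 change 2.11, SE 0.26), the largest rise. Alkal1, a ligand of Alk, had the largest fall, from 29 counts on day 2 to 0 on days 14 and 18.

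Of 7 glypicans and other cell-surface heparan sulfate carriers tested 3 rose and 1 fell. Gpc6, a glypican, went from 48.1 to 118 scaled TPM (log2 change 1.59, SE 0.27), and Cd44, the hyaluronan receptor, from 807 to 73.2 (-4.20, SE 0.41). Of 24 heparan sulfate chain enzymes 8 rose and 6 fell, near the shares over all genes. The extracellular 6-O-sulfatases, which trim the chains the ligands bind, parted. Sulf2 went from 80.9 to 325 (1.92, SE 0.32) and Sulf1 from 144 to 79.7 (-1.83, SE 0.35). Sulf1 was highest on day 4, at 246, and its fitted fall is larger than that between the end points. Hs6st3, a sulfotransferase, had the largest rise, from 10 counts on day 2 to 57 on day 18, with 130 on day 14. Ndst3 had the largest fall, from 80 counts to 47, with 140 on day 6.

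Of 15 chondroitin and dermatan sulfate chain enzymes 7 rose and 1 fell. Chpf, a chain polymerising factor, went from 17.8 to 42.5 scaled TPM (log2 change 1.09, SE 0.18), and Chsy1, the most abundant, from 50.5 to 67.8 without passing (0.53, SE 0.21). Chst3 rose from 20 counts to 143, and Chst11, a 4-O-sulfotransferase, fell from 11.4 to 7.46 scaled TPM (-0.68, SE 0.15). Of 14 syndecan partners and sheddases 5 rose and 5 fell. Mmp2, a matrix metalloprotease, went from 222 to 495 (1.04, SE 0.15), and Mmp9 rose from 20 counts to 92. Tiam1, a Rac activator, went from 45.8 to 9.69 scaled TPM (-1.96, SE 0.26) and from 2378 counts to 956. Its TPM did not follow its counts on every day, at 36.0 from 1002 counts on day 16. Timp3, a protease inhibitor, went from 609 to 750 without passing (0.87, SE 0.44), with a low of 229 on day 6.

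**Figure D5:**
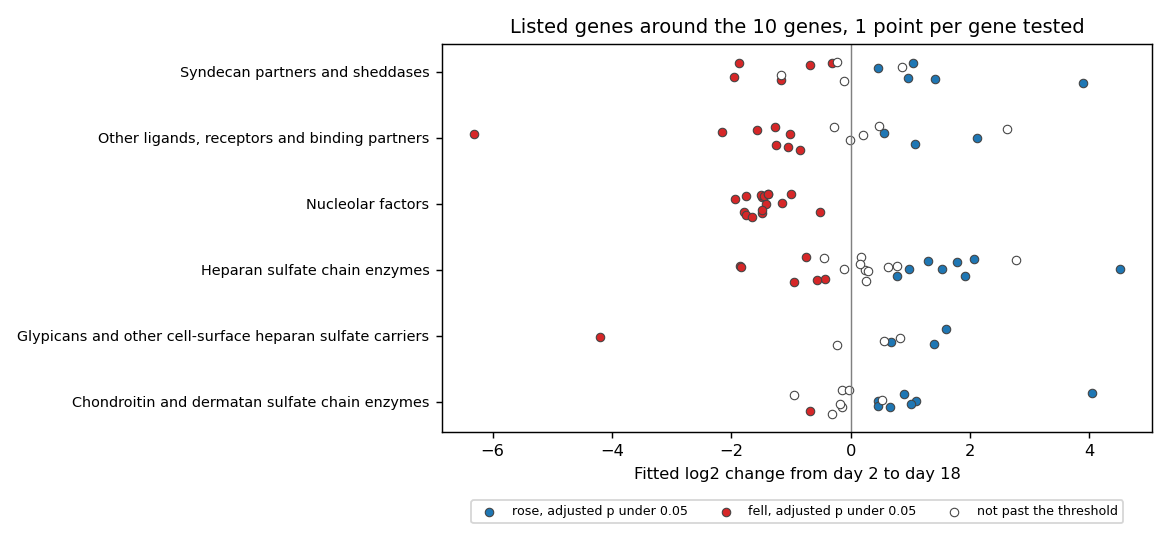
Fitted log2 change from day 2 to day 18 (x axis) of the listed genes around the set, 1 point per gene tested and 1 line per list (y axis, with random vertical spread). Blue rose and red fell at an adjusted p under 0.05, and open points did not pass. All 16 genes listed as nucleolar factors, with Myc, lie left of 0, and the other 5 lists hold points on both sides.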

How the data were processed

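RNA from CFP-sorted calvarial cells was amplified with NuGEN Ovation and made into TruSeq libraries. Per the labels and the study's methods, the authors aligned reads with Bowtie 0.12.9 to NCBIM37 and quantified genes with RSEM (1.2.8 in the submitters' processing notes, another version in the methods). The deposited tables give expected counts, TPM, FPKM and effective length per gene for 27 profiles. The authors deposited TPM and FPKM as RSEM wrote them, and the expected counts were whole for all 10 genes.

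Here expected counts were rounded and summed over the 3 lane profiles of a day. Genes passing filterByExpr (minimum count 10) were fitted in edgeR 4.0.16 by quasi-likelihood with a straight line in day, upper-quartile factors and Benjamini-Hochberg adjustment, called at 0.05, and also with a spline. The p-values measure scatter of single libraries around the line. Exact permutation tests (scipy 1.17.1) covered 4 ratios, and Ptn to Mdk counted among them in the adjustment. These tests take the 9 days as interchangeable, though the days follow a course, and do not measure scatter between cultures. TPM was scaled to a common upper quartile. Genes named beside the set were, per list, the 2 of highest mean level and the largest rise and fall past the threshold, and the 3 most alike in course, of which 1 is not reported here. Members and lists were chosen with earlier results of these data known. Code was tested on simulated data. TMM, DESeq2 1.42.0, other filters and units, and leaving out lanes and days were tried. Replicate numbers did not pair the profiles.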

Additional observations from a re-analysis of the deposited data

How the results depend on the processing

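Leaving Ptn aside, the count of genes that passed ranged from 5 (without day 18, Ptprz1 lost) to 8 (without day 2, Sdc1 and Sdc3 gained). It was 7 under TMM factors, DESeq2 and the 27 single profiles, where Sdc1 was gained. The fit of 27 profiles counts the 3 lanes of a library as separate samples, so its calls are a description only. Of 355 values recomputed under other settings 323 kept direction and side of the threshold or moved less than their spread. These 355 include values of Ptn, and also counts of genes, every one of which was taken as kept. Among the fitted changes and ratios alone, those with Ptn included, 208 of 227 kept direction and side. The ratio of Ptn to Mdk had an r of 0.652 to 0.830 with 1 day left out, a description. The ratio of Sdc1 to Sdc3 had an r of -0.826 to -0.223 and passed without day 2. The ratio of Ptprs to Ptprz1 had an r of -0.62 to 0.25 with 1 day left out and 0.0043 without replicate 3, turning sign. The causes were not tested. Profiles with the same number did not deviate together (mean r 0.00592 over 108 pairs). With the replicate number as a block, 27 profiles gave 7 genes of the set and 10881 genes in all, against 10754 without the block and 8510 from summed libraries. The dispersion of profiles around their time point means was 0.000232 and that of summed libraries around the line, curvature over days included, 0.0581. Scatter between replicate libraries was not measured. Levels per length moved with the unit and the assumed transcript, alternatives chosen after seeing the data. Alk, at 60 counts, is limited by depth.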
